A study of Bos taurus with 12 samples.

Results

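The genes described here encode the nuclear subunits of oxidative phosphorylation, the 5 enzyme complexes of the inner mitochondrial membrane. A probe set was taken where its single gene symbol followed the standard naming of the subunits. These were NDUFA, NDUFB, NDUFC, NDUFS and NDUFV, SDH, UQCR, COX4 to COX8 and ATP5 subunits, with CYC1 and CYCS. Where a gene had several probe sets, the one with the highest mean over the 12 arrays stood for it. The rule found 79 genes of the 9155 measured under a symbol of their own, on 99 probe sets. Of these, 35 belong to complex I, 4 to complex II, 9 to complex III, 14 to complex IV and 17 to complex V. NDUFA4 and COX7A2L were placed with complex IV, which they bind. The rule also covers CYCS, COX4I2 and COX6B1, but it found no probe set with any of them as its single symbol. The mitochondrially encoded subunits were not analysed here.

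Total RNA from pools of Bos taurus embryos was measured on Affymetrix bovine arrays, with 3 arrays in each of 4 groups. Day 13 in vitro and Day 13 in vivo are conceptuses recovered from synchronized recipient heifers after transfer of blastocysts made in vitro or in vivo. Day 7 in vitro and Day 7 in vivo are blastocysts of those origins that were frozen before transfer. A Day 13 pool held 5 conceptuses, after 10 embryos per recipient, and a Day 7 pool held 25 blastocysts, so every value is an average over a pool, and in such bulk RNA fewer cells of a type and less RNA per cell cannot be told apart. Each array took 75 ng of total RNA through 2 cycles of amplification, so it reports relative and not absolute amounts of a transcript per embryo. The labels give no strain, sire or culture medium.

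Oxidative phosphorylation makes ATP by passing electrons along a chain. Complexes I and II take electrons from NADH and succinate, complex III hands them to cytochrome c, and complex IV gives them to oxygen. Complexes I, III and IV pump protons, and complex V, the ATP synthase, uses the return of these protons to form ATP. The bovine blastocyst raises its oxygen use as it expands, and the conceptus then begins to elongate in the uterus.

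Values are the deposited log2 intensities. Differences are given on the log2 scale with their standard errors (SE) from limma, and the call threshold was 0.05 for p adjusted by Benjamini and Hochberg's method across the 24016 probe sets tested. Errors of group means are standard deviations (SD, n = 3). Background was 3.39 on this scale, set by control probe sets with no matching spike-in. By it 77 of the 79 genes were above background on all 12 arrays. COX7A1 was above it on 5 arrays, and COX6A2 was at background on all.

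Some arrays stood apart. The poly-A spike-ins are RNAs added before labelling. They lay at 9.38, 10.61 and 13.06 in Day 13 in vitro replicates 1, 2 and 3. On the other 9 arrays they lay between 13.38 and 14.98. Spike-ins added at hybridization lay at 10.70, 11.13 and 12.24 in the same Day 13 in vitro replicates and between 12.15 and 13.53 on the other 9 arrays. GAPDH is probed at its 3' and 5' ends, and the 3' minus 5' difference, which grows where less of the 5' end was labelled, was 2.53, 2.61 and 4.17 in Day 13 in vitro, 4.62, 2.85 and 4.57 in Day 13 in vivo pools, 3.40, 4.19 and 3.47 in Day 7 in vitro and 5.58, 5.65 and 5.59 in Day 7 in vivo. The poly-A spike-ins and the GAPDH difference both vary between groups that are compared below. Their part in the results was not tested beyond the fits that include them. No fit included the hybridization spike-ins. Of the markers of other tissues, PTPRC, CD68, CD14 and DCN were at background on all arrays. Of 7 blood and immune genes HBB alone exceeded it on at least 3 arrays, with 8.49, 5.08 and 8.25 in Day 7 in vitro against 7.35, 6.66 and 7.80 in Day 7 in vivo. Of 7 endometrial genes VIM alone did so, with 7.19, 7.68 and 3.67 in Day 13 in vivo. The summed level of the blood and immune genes, in log2, was 5.15 on all Day 13 in vitro arrays, 5.04 to 5.29 in pools of Day 13 in vivo, 5.96 to 8.60 in Day 7 in vitro and 7.01 to 7.98 in Day 7 in vivo. That of the endometrial genes was 5.80 to 7.90 in Day 13 in vivo and 5.08 to 5.27 elsewhere. The trophoblast keratins KRT8 and KRT18 were above background on all 12 arrays. Of 10 trophoblast genes measured, 6 rose at Day 13 in vitro and 4 in vivo, where 3.55% and 1.7% of all probe sets rose. The summed level of the trophoblast genes was 15.76 to 16.46 in Day 13 in vitro and 15.73 to 16.03 in pools of Day 13 in vivo. It was 14.48 to 15.13 in Day 7 in vitro and 14.02 to 14.99 in Day 7 in vivo. Of 7 hypoblast and yolk sac genes, APOE, APOA1 and APOA2 rose by 4.05, 5.47 and 5.93 at Day 13 in vivo, GATA6 fell by 1.81 at Day 13 in vitro, and APOA2 was lower in vitro at Day 13 (-4.97). Their summed level was 12.30 to 12.95 for Day 13 in vitro, 13.63 to 14.93 for Day 13 in vivo, 13.43 to 14.10 for Day 7 in vitro and 13.25 to 14.11 for Day 7 in vivo. Of 3 epiblast genes, CRIPTO rose by 7.05 at Day 13 in vitro and 4.85 in vivo and was lower in vitro at Day 7 (-3.49), POU5F1 fell by 5.80 at Day 13 in vitro, and SOX2 was above background on 2 arrays. Their summed level was 9.77 to 10.32 for Day 13 in vitro, 11.21 to 11.93 for Day 13 in vivo, 9.91 to 11.24 for Day 7 in vitro and 9.04 to 10.33 for Day 7 in vivo. Of 4 cumulus genes HAS2 alone was above background, 0 were called, and the summed level was 7.17 to 7.75 for Day 13 in vitro, 7.51 to 8.15 for Day 13 in vivo, 7.63 to 7.95 for Day 7 in vitro and 8.38 to 8.67 for Day 7 in vivo, without overlap between the Day 7 groups. The part of these cell type differences in the subunit results was not tested. Of the probe sets above background, 16.6% were called for Day 13 against Day 7 in vitro and 8.23% in vivo. Between the origins 0.378% of them were called at Day 7 and 2.57% at Day 13.

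Few subunit genes passed the test in any comparison. In embryos of in vitro origin, 2 of 79 genes rose and 4 fell at Day 13 relative to Day 7, or 7.59%, where 7.51% of all probe sets and 16.6% of those above background were called. Of all probe sets 3.55% were higher there and 3.96% lower. In embryos of in vivo origin 1 gene fell and 0 rose, where 3.79% of all probe sets were called (1.7% higher and 2.09% lower) and 8.23% of those above background. Between the origins at Day 7, 1 gene was lower in vitro and 0 were higher, where 0.208% of all probe sets were called (0.129% higher and 0.0791% lower) and 0.378% of those above background. Between the origins at Day 13 limma called 0 of the 79, where 1.2% of all probe sets and 2.57% of those above background were called. An unadjusted p below 0.05 was reached by 21 genes (26.6%) in the in vitro day comparison and 4 (5.06%) in the in vivo one. Of all probe sets 19.2% and 14% reached it, and of those above background 38.6% and 27.3%. Between the origins it was reached by 14 genes (17.7%) at Day 7 and 12 (15.2%) at Day 13. Of all probe sets 6.67% and 16% reached it there, and of those above background 12.04% and 29.9%. The subunit share was below that of probe sets above background except between the origins at Day 7. The called genes were NDUFB2, NDUFB6, COX5A, COX5B, COX7A2, COX7A2L and COX8A, and no gene of complexes II, III or V was among them.

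The genes leaned to one side in 2 comparisons. In embryos of in vitro origin 58 of the 79 values lay below 0 at Day 13 and 20 above, with a median of -0.36. Between the origins at Day 7, 69 lay above 0 in vitro and 10 below, with a median of 0.52. The probe sets above background had medians of -0.02 and 0.06 in these comparisons, and 48.3% and 55.6% of them had values above 0. Counted by 1 probe set per gene, as the subunits are, the 5803 genes above background had medians of -0.02 and 0.12. Of these genes 48.2% and 60.6% had values above 0. In embryos of in vivo origin the median was 0.08, with 43 values above 0 and 36 below, and between the origins at Day 13 it was 0.04, also with 43 above and 36 below. Of the probe sets above background 48.2% and 54.2% had values above 0 in these. The Day 7 comparison and the in vitro day comparison share the Day 7 in vitro arrays, so their leanings are not independent of each other.

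**Figure D1:**
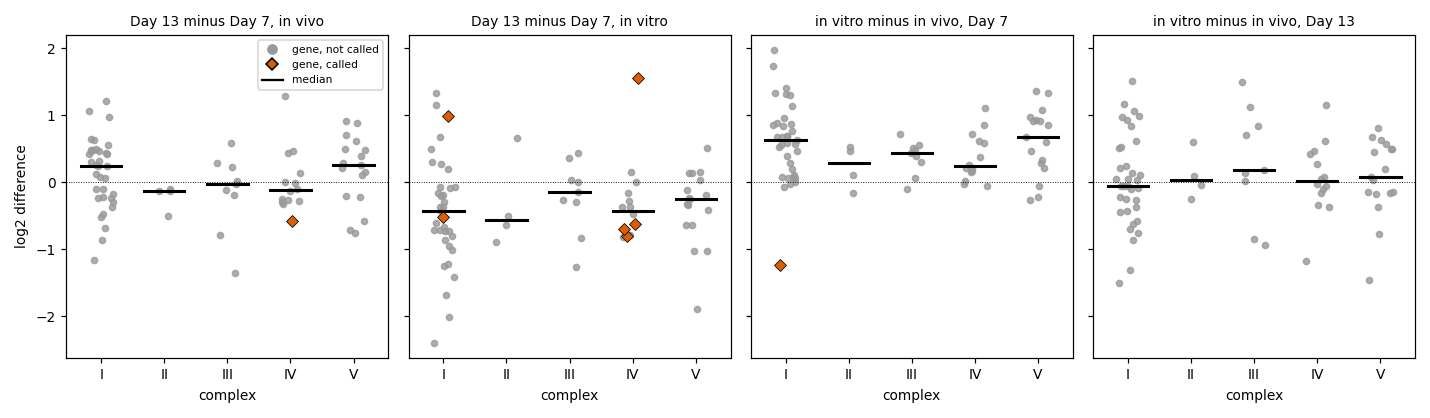
Each point is the log2 difference (vertical axis) of 1 of the 79 subunit genes, by complex (horizontal axis), in 4 comparisons; diamonds passed the test and bars are medians. Complexes I and V have Day 7 medians of 0.62 and 0.68 for in vitro minus in vivo, and every complex has a median below 0 for Day 13 minus Day 7 in vitro.

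Counts of genes whose arrays did not overlap showed the same sides. At Day 7, 26 genes had every in vitro array above every in vivo array and 1, NDUFB2, the reverse. That is 32.9% higher, where 5.57% of all probe sets and 11.6% of those above background were higher without overlap, and 3.72% and 7.06% were lower. By 1 probe set per gene, 13.1% of the genes above background were wholly higher there and 6.17% wholly lower. In the in vitro day comparison 24 genes lay wholly lower at Day 13 and 3 wholly higher, or 30.4% lower, where 11.1% of all probe sets and 22.7% of those above background were lower without overlap, and 10.4% and 21.6% were higher. In the in vivo day comparison 4 were wholly higher and 5 wholly lower, or 11.4% together. There 6.68% of all probe sets were wholly higher and 8.34% wholly lower, and of those above background 13.4% and 17.2%. Between the origins at Day 13 3 were wholly higher and 3 wholly lower, or 7.59%. There 8.73% of all probe sets were wholly higher and 6.01% wholly lower, and of those above background 18.3% and 11.5%.

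The level of 0 itself depends on how the arrays are scaled. When 61 genes for cytosolic ribosomal proteins were used to centre the arrays, the Day 7 median was -0.024, with 38 values above 0 and 41 below, and that of the in vivo day comparison was -0.43, with 12 above and 67 below. The same centring moved every probe set of an array alike, and the median of all probe sets by -0.54 and -0.50. It therefore cannot change the distance between the subunit genes and all probe sets, and gives their values relative to the ribosomal protein genes. Relative to those, the Day 7 values lay on both sides of 0. Fitted with GAPDH as a covariate, the medians were -0.15 and -0.44. The in vitro day median stayed below 0 under every alternative tried, between -0.61 and -0.21.

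Day 13 in vivo replicate 2 held the highest value in 70 of the 78 genes above background, or 89.7%, and replicate 1 the lowest in 70. Over all 5803 genes above background replicate 2 was highest in 49.6% and replicate 1 lowest in 45.0%. The median of the 79 genes was 11.35, 12.23 and 11.62 in replicates 1, 2 and 3. Ribosomal protein genes averaged 13.89, 14.69 and 14.07 in the same arrays, so the array that was high for the subunits was also high for these and had the low GAPDH difference. Without replicate 2 the in vivo day median was -0.23. Day 7 in vitro replicate 3 was highest in 58 of the 78 genes and replicate 2 lowest in 63, with medians of 12.25, 11.95 and 12.46 in replicates 1, 2 and 3.

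The spread between replicates of the subunit genes followed these arrays. The median SD over the 79 genes was 0.33 for Day 13 in vitro, 0.63 for Day 13 in vivo, 0.37 for Day 7 in vitro and 0.24 for Day 7 in vivo. Over all genes above background the median SD was 0.38 for Day 13 in vitro pools, 0.50 for those of Day 13 in vivo, 0.37 for Day 7 in vitro and 0.35 for Day 7 in vivo. Subunit values scattered most in Day 13 in vivo and least in Day 7 in vivo.

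**Figure D2:**
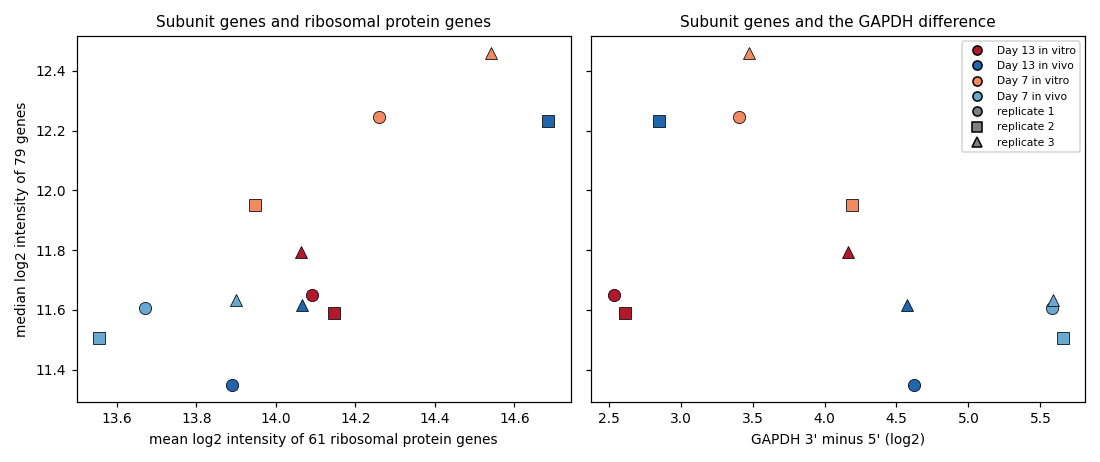
The median log2 intensity of the 79 subunit genes on each of 12 arrays (vertical axis) is plotted against the mean of 61 ribosomal protein genes (left) and the GAPDH 3' minus 5' difference (right), both in log2. Day 13 in vivo replicate 2 and Day 7 in vitro replicates 1 and 3 lie at the top, with medians of 12.23, 12.25 and 12.46.

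Within Day 13 in vitro, replicates 1 and 2, which had the low spike-ins, both lay above replicate 3 in 45 of the 78 genes and both below it in 25. Their mean differed from replicate 3 by more than 1 in 16 genes, or 20.5%, against 22.9% of all genes above background. The widest gap was that of UQCRC1, which had 11.55 and 11.59 in replicates 1 and 2 and 8.63 in replicate 3. NDUFB10 went the other way, with 10.52 and 10.66 in replicates 1 and 2 and 12.34 in replicate 3.

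**Figure D3:**
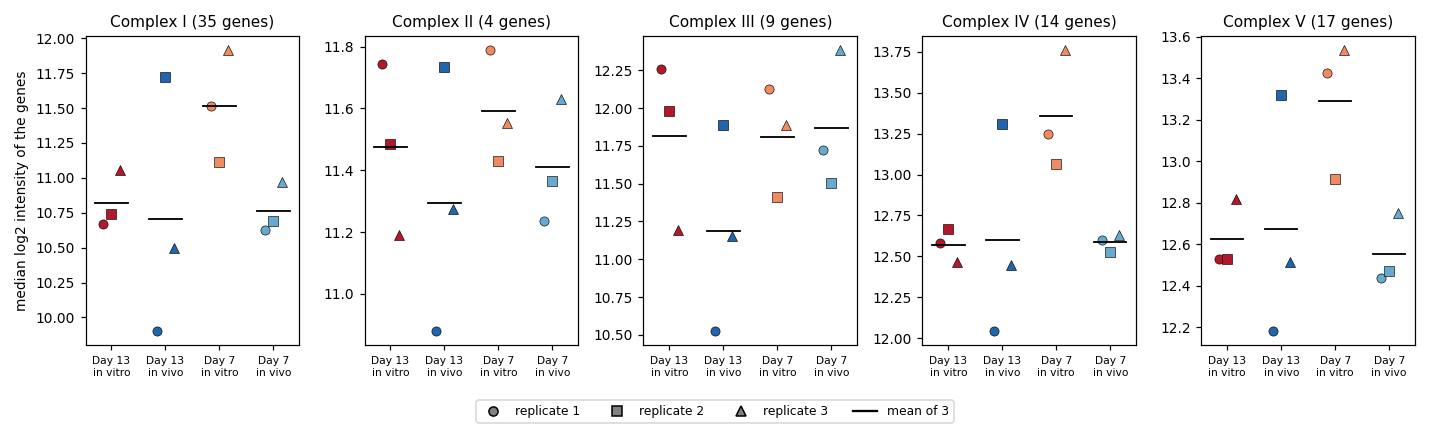
Points are the median log2 intensity of the genes of each complex on each of 12 arrays, by group, and bars are means of 3 arrays; the vertical axes differ between panels. Day 7 in vitro arrays lie above Day 7 in vivo arrays in complexes I, IV and V and overlap them in complexes II and III, and Day 13 in vivo replicate 2 is the highest of its group in every panel.

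Complex I, NADH dehydrogenase, has a core that carries electrons and a large set of accessory subunits. Its 35 genes had medians of 0.24 and -0.43 for Day 13 minus Day 7 in vivo and in vitro, and 0.62 and -0.05 for in vitro minus in vivo at Day 7 and Day 13. At Day 7, 32 of the 35 lay above 0 in vitro, 12 of them without overlap, or 34.3%. The probe sets above background were above 0 there in 55.6% and wholly higher in 11.6%. The 2 probe sets of highest intensity were those of NDUFC2, with group means between 13.52 and 13.81, and NDUFA12. The intensity of different probe sets does not order their transcripts.

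Among the 6 core genes measured, 0 passed in any comparison. NDUFV1, which holds the NADH site, had 10.46, 10.50 and 8.65 in Day 13 in vitro, 7.78, 10.34 and 8.70 in Day 13 in vivo pools, 10.52, 9.70 and 10.69 in Day 7 in vitro and 9.52, 9.20 and 10.13 in Day 7 in vivo. Its Day 13 groups overlapped and so did its Day 7 groups. NDUFV2, its iron-sulfur partner, had 11.48, 11.62 and 12.28 in Day 13 in vitro, 11.82, 12.30 and 12.40 in Day 13 in vivo pools, 12.50, 12.45 and 12.56 in Day 7 in vitro and 12.50, 12.52 and 12.59 in Day 7 in vivo. Every Day 13 array of NDUFV2 lay below every Day 7 array of its origin, by -0.71 ± 0.21 in vitro (adjusted p = 0.0925) and -0.37 ± 0.21 in vivo (adjusted p = 0.568). NDUFS8, which carries iron-sulfur clusters towards the quinone site, differed by -1.41 ± 0.77 in the in vitro day comparison (adjusted p = 0.417) and by 0.47 ± 0.77 in vivo.

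NDUFB2 and NDUFB6, both accessory subunits of the distal membrane arm, were the complex I genes that passed. NDUFB6 had 11.55, 11.31 and 11.67 in Day 13 in vitro, 11.77, 11.66 and 11.76 in Day 13 in vivo pools, 11.92, 12.09 and 12.10 in Day 7 in vitro and 11.91, 11.97 and 11.63 in Day 7 in vivo. It fell by 0.53 ± 0.11 in vitro, a 1.44-fold difference without overlap (adjusted p = 0.0273). In vivo it differed by -0.11 ± 0.11 (adjusted p = 0.77).

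NDUFB2 had 10.48, 10.18 and 10.17 in Day 13 in vitro, 9.84, 10.34 and 10.50 in Day 13 in vivo pools, 9.32, 9.37 and 9.18 in Day 7 in vitro and 10.62, 10.62 and 10.33 in Day 7 in vivo. The Day 7 in vitro arrays lay below all other arrays of this probe set. NDUFB2 was lower at Day 7 in vitro, with a difference of -1.23 ± 0.17 (adjusted p = 0.0412), and rose by 0.99 ± 0.17 at Day 13 in vitro (adjusted p = 0.0116). Its other probe set gave 0.79 and -1.22 in these comparisons, so its direction depends on the probe set.

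The 11 accessory genes of the B series, NDUFB2 and NDUFB6 among them, lay mostly lower at Day 13 in vitro. There 6 were wholly lower and 2 wholly higher, or 54.5% and 18.2%, with a median of -0.67. The shares of probe sets above background were 22.7% and 21.6%. NDUFB7, a subunit on the intermembrane side, had 7.65, 7.93 and 8.88 in Day 13 in vitro, 8.90, 11.05 and 9.01 in Day 13 in vivo pools, 10.84, 9.21 and 11.61 in Day 7 in vitro and 9.87, 8.90 and 8.94 in Day 7 in vivo. Its in vitro day difference of -2.40 ± 0.77 was the largest of the 79 genes and did not pass (adjusted p = 0.114), with a 95% interval of -4.15 to -0.65. NDUFB10 differed by -1.69 ± 0.43 (adjusted p = 0.0534) and the smaller values were those of the arrays with low spike-ins. Between the origins at Day 13 the largest values below 0 were those of NDUFB7 (-1.50 ± 0.77), ATP5ME (-1.47 ± 0.51) and NDUFB10 (-1.31 ± 0.43), and none passed (adjusted p = 0.41, 0.215 and 0.197). NDUFB5 went the other way in the in vitro day comparison, with 10.55, 10.06 and 9.30 in Day 13 in vitro and 8.87, 8.61 and 8.42 in Day 7 in vitro, a difference of 1.34 ± 0.35 (adjusted p = 0.0579).

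Among 12 accessory genes of the A series, all 12 values lay above 0 for in vitro minus in vivo at Day 7, with a median of 0.73, and 0 passed. NDUFA11, which sits in the membrane arm, had 8.77, 7.97 and 9.44 in Day 7 in vitro and 7.68, 6.11 and 6.46 in Day 7 in vivo, a difference of 1.98 ± 0.89 without overlap (adjusted p = 0.773). NDUFA3 had 9.20, 9.85 and 10.35 in Day 13 in vitro and 11.82, 11.11 and 12.48 in Day 7 in vitro, a difference of -2.01 ± 0.57 without overlap (adjusted p = 0.0768). NDUFA10 and NDUFA9 differed by -1.17 ± 0.55 and -0.87 ± 0.55 in the in vivo day comparison (adjusted p = 0.419 and 0.568). NDUFA8, imported through the intermembrane space, and NDUFA9 differed by 1.51 ± 0.68 and 1.16 ± 0.55 between the origins at Day 13 (adjusted p = 0.325 and 0.359), with overlapping arrays.

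NDUFS5, NDUFS6 and NDUFB9 had wide spreads. NDUFS5 had 9.43, 9.42 and 8.65 in Day 13 in vitro, 7.93, 11.11 and 8.63 in Day 13 in vivo pools, 10.14, 8.59 and 10.96 in Day 7 in vitro and 8.71, 8.04 and 7.73 in Day 7 in vivo. Its differences were 1.06 ± 0.87 for the day in vivo and 1.73 ± 0.87 for origin at Day 7 (adjusted p = 0.623 and 0.836). NDUFS6 differed by 1.21 ± 0.53 in the in vivo day comparison without overlap (adjusted p = 0.363). NDUFB9 differed by 1.41 ± 0.68 at Day 7 between the origins, without overlap (adjusted p = 0.836).

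Complex II, succinate dehydrogenase, is also an enzyme of the citric acid cycle. Its 4 genes gave 0 calls in any comparison, with medians between -0.57 and 0.28. SDHA, the flavoprotein that oxidizes succinate, had 9.80, 9.79 and 9.52 in Day 13 in vitro, 9.31, 10.29 and 9.62 in Day 13 in vivo pools, 10.48, 10.39 and 10.15 in Day 7 in vitro and 10.24, 9.80 and 10.67 in Day 7 in vivo. SDHA lay wholly lower at Day 13 in vitro, by -0.64 ± 0.28 (adjusted p = 0.264). SDHB, its iron-sulfur partner, differed by -0.89 ± 0.62 there (adjusted p = 0.577) and its arrays overlapped. The membrane anchors SDHC and SDHD, the brightest probe sets of the complex, differed by -0.50 ± 0.31 and 0.66 ± 0.34 (adjusted p = 0.509 and 0.369).

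Complex III, cytochrome bc1, had medians of -0.02 and -0.15 for the day in vivo and in vitro and 0.44 and 0.17 for origin at Day 7 and Day 13. None of its 9 genes passed by its brightest probe set, though a second probe set of UQCRC2 did. Its electron carriers are CYC1, cytochrome c1, and UQCRFS1, the Rieske iron-sulfur protein. CYC1 had 12.36, 12.17 and 10.98 in Day 13 in vitro, 10.52, 11.89 and 10.97 in Day 13 in vivo pools, 12.13, 11.41 and 11.88 in Day 7 in vitro and 11.72, 11.51 and 12.50 in Day 7 in vivo. UQCRFS1 had 12.43, 12.12 and 10.89 in Day 13 in vitro, 9.69, 11.67 and 10.71 in Day 13 in vivo pools, 11.47, 10.82 and 11.88 in Day 7 in vitro and 10.56, 10.91 and 11.17 in Day 7 in vivo. In both, Day 13 in vitro replicate 3 lay more than 1 below replicates 1 and 2, and the groups overlapped in every comparison.

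UQCRC1, a core protein of complex III, had the widest spread of all 79 genes in both Day 13 groups, with an SD of 1.70 in vitro and 2.10 in vivo. It had 6.96, 11.16 and 9.19 in Day 13 in vivo pools, 11.39, 10.30 and 10.99 in Day 7 in vitro and 10.46, 10.05 and 10.86 in Day 7 in vivo. Its differences of -1.35 ± 1.11 in the in vivo day comparison and 1.49 ± 1.11 between the origins at Day 13 were among the largest of the 79 in those comparisons and did not pass (adjusted p = 0.627 and 0.57). The brightest structural genes, UQCRB and UQCRH, varied far less. UQCRH, the hinge protein, had group means of 12.92 ± 0.14 in Day 13 in vitro, 12.91 ± 0.35 in pools of Day 13 in vivo, 13.19 ± 0.31 in Day 7 in vitro and 12.88 ± 0.08 in Day 7 in vivo.

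Complex IV, cytochrome c oxidase, held 5 of the 7 called genes. In the in vitro day comparison 3 of its 14 genes fell and 1 rose, or 28.6%. There 7.51% of all probe sets and 16.6% of those above background were called. At Day 13, 6 of the 14 lay wholly lower and 1 wholly higher, or 42.9% and 7.14%. The shares of probe sets above background were 22.7% and 21.6%. Together 50% of the complex IV genes did not overlap, near the 44.4% of probe sets above background. COX5A and COX5B line the matrix side of the enzyme and COX8A is a small membrane subunit.

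COX5B had 13.76, 13.83 and 13.88 in Day 13 in vitro, 14.02, 14.48 and 13.98 in Day 13 in vivo pools, 14.42, 14.44 and 14.49 in Day 7 in vitro and 14.31, 14.27 and 14.31 in Day 7 in vivo. Its Day 13 in vitro arrays lay below all others, while its Day 7 in vitro arrays lay above those of Day 7 in vivo. COX5B fell by 0.63 ± 0.11 at Day 13 in vitro, a 1.55-fold difference (adjusted p = 0.0135), and differed by -0.14 ± 0.11 in vivo (adjusted p = 0.625). The day effect itself differed by -0.49 ± 0.16 between the origins, which did not pass (adjusted p = 0.32).

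COX5A had 13.04, 13.10 and 13.66 in Day 13 in vitro, 13.37, 13.87 and 13.66 in Day 13 in vivo pools, 14.00, 13.93 and 14.27 in Day 7 in vitro and 13.95, 13.81 and 13.94 in Day 7 in vivo. COX5A fell by 0.80 ± 0.19 in vitro (adjusted p = 0.036), with no overlap. COX8A had 12.98, 13.09 and 12.98 in Day 13 in vitro, 12.95, 13.48 and 13.10 in Day 13 in vivo pools, 13.62, 13.59 and 13.94 in Day 7 in vitro and 13.59, 13.39 and 13.51 in Day 7 in vivo. It fell by 0.70 ± 0.14 in vitro (adjusted p = 0.0219) and differed by -0.32 ± 0.14 in vivo (adjusted p = 0.365), where the arrays overlapped.

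The COX7A genes went different ways. COX7A2, the isoform found in most tissues, had 14.72, 14.50 and 14.25 in Day 13 in vitro, 13.95, 14.22 and 14.03 in Day 13 in vivo pools, 14.96, 14.85 and 14.78 in Day 7 in vitro and 14.69, 14.48 and 14.78 in Day 7 in vivo. It fell by 0.58 ± 0.13 at Day 13 in vivo, which lay just inside the threshold (adjusted p = 0.0499). It was also wholly lower at Day 13 in vitro, by -0.38 ± 0.13, which did not pass (adjusted p = 0.147).

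COX7A2L, known in mouse and human to join complexes III and IV into supercomplexes, had 12.17, 11.41 and 10.54 in Day 13 in vitro, 9.91, 10.39 and 10.37 in Day 13 in vivo pools, 9.72, 10.05 and 9.67 in Day 7 in vitro and 9.67, 9.88 and 9.82 in Day 7 in vivo. Every Day 13 array lay above every Day 7 array of its origin. COX7A2L rose by 1.56 ± 0.36 in vitro, 2.94-fold (adjusted p = 0.034), and differed by 0.43 ± 0.36 in vivo (adjusted p = 0.627). The highest values were those of the 2 arrays with low spike-ins. COX7A1, the muscle isoform, had 4.62, 5.51 and 3.64 in Day 13 in vivo pools, 3.25, 3.25 and 3.41 in Day 7 in vivo and 3.25 on all Day 7 in vitro arrays. Its in vivo day difference of 1.28 ± 0.39 was the largest above 0 of the 79 genes there and did not pass (adjusted p = 0.149). VIM was also above background in those 3 Day 13 in vivo arrays, and its part in this value was not tested.

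**Figure D4:**
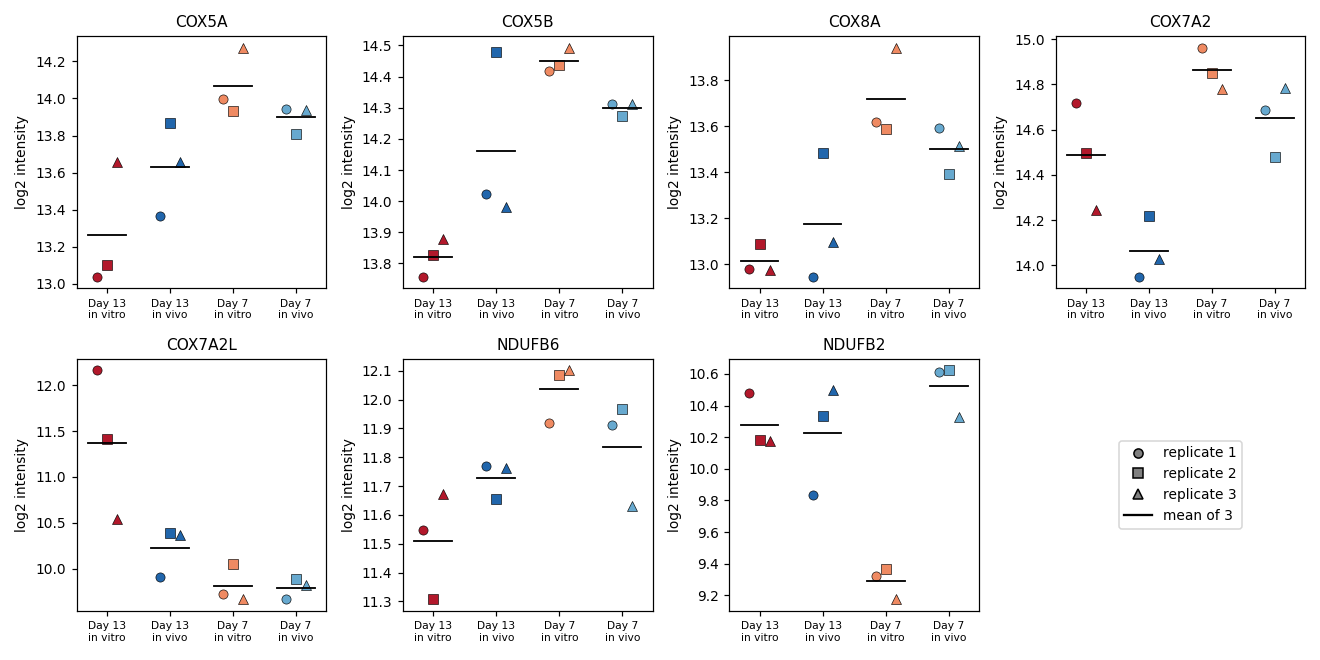
Log2 intensities of the 7 called genes on each of 12 arrays (points) with the mean of 3 (bars); the vertical axes differ between panels. COX5A, COX5B, COX8A and NDUFB6 lie lower in Day 13 in vitro than in Day 7 in vitro, COX7A2L and NDUFB2 higher, and COX7A2 lies lower in Day 13 in vivo than in Day 7 in vivo.

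Apart from COX8A, described above, the other tissue isoform genes of complex IV gave no call. COX4I1 had 13.76, 13.85 and 12.72 in Day 13 in vitro, 12.40, 13.46 and 12.64 in Day 13 in vivo pools, 13.78, 13.31 and 14.09 in Day 7 in vitro and 13.26, 12.60 and 13.47 in Day 7 in vivo. COX6A1 was above background on all arrays while COX6A2, the heart and muscle isoform, stayed between 2.23 and 2.33. COX6B2, a testis isoform in human, ranged between 3.74 and 5.17, close to background. COX8B, a heart and muscle isoform, ranged between 10.16 and 11.94 by its brightest probe set. The other one stayed at the floor of the deposited values, so its level rests on 1 probe set. NDUFA4 had 12.58, 12.61 and 12.44 in Day 13 in vitro and 13.19, 13.06 and 13.73 in Day 7 in vitro, a difference of -0.78 ± 0.31 without overlap (adjusted p = 0.196).

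Complex V, ATP synthase, had medians of 0.26 and -0.25 for the day in vivo and in vitro and 0.68 and 0.08 for origin at Day 7 and Day 13, and 0 of its 17 genes passed. Its parts are described in turn, and differences between them were not tested. The 4 genes for small membrane subunits were ATP5ME, ATP5MF, ATP5MG and ATP5MJ. By their brightest probe sets all 4 lay wholly lower at Day 13 in vitro, with a median of -1.03. There 22.7% of the probe sets above background were wholly lower. By the same brightest probe sets all 4 had values above 0 in vivo, with a median of 0.33. The other probe set of ATP5MG went against this, with 0.74 ± 0.32 in vitro, wholly higher at Day 13 (adjusted p = 0.257), and -0.73 ± 0.32 in vivo (adjusted p = 0.358). ATP5ME, subunit e, which helps ATP synthase form dimers, had 11.79, 12.10 and 13.51 in Day 13 in vitro, 13.55, 14.57 and 13.68 in Day 13 in vivo pools, 14.73, 13.73 and 14.63 in Day 7 in vitro and 13.87, 13.05 and 13.45 in Day 7 in vivo. Its in vitro day difference was -1.90 ± 0.51 (adjusted p = 0.0634), and its 2 lowest arrays were those with low spike-ins.

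The c ring, through which protons pass, is built from 1 mature protein that ATP5MC1, ATP5MC2 and ATP5MC3 all encode. All 3 genes lay wholly higher at Day 7 in vitro, as did 11.6% of the probe sets above background. ATP5MC2 had 11.19, 11.02 and 12.20 in Day 7 in vitro and 10.52, 10.05 and 9.76 in Day 7 in vivo, a difference of 1.36 ± 0.47 (adjusted p = 0.622). ATP5MC3 had 14.26, 13.57 and 14.31 in Day 7 in vitro and 13.09, 13.01 and 13.23 in Day 7 in vivo, a difference of 0.93 ± 0.36 (adjusted p = 0.679). ATP5MC1 differed by 0.59 ± 0.20 (adjusted p = 0.622).

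The catalytic head comes next. ATP5F1A and ATP5F1B, the alpha and beta subunits and the brightest probe sets of the complex, differed by 0.03 ± 0.39 and 0.14 ± 0.37 in the in vitro day comparison and by -0.22 ± 0.39 and -0.75 ± 0.37 in vivo. ATP5F1C, the gamma subunit of the rotating stalk, had 13.20, 13.25 and 13.15 in Day 13 in vitro, 12.88, 13.23 and 13.41 in Day 13 in vivo pools, 13.44, 13.68 and 13.49 in Day 7 in vitro and 13.64, 13.72 and 13.91 in Day 7 in vivo. ATP5F1C lay wholly lower at Day 13 in both origins, by -0.34 ± 0.13 in vitro (adjusted p = 0.2) and -0.58 ± 0.13 in vivo, just outside the threshold (adjusted p = 0.052). At Day 7 ATP5F1B and ATP5F1C were the complex V genes with the lowest values for in vitro minus in vivo, at -0.27 ± 0.37 and -0.22 ± 0.13.

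The peripheral stalk genes ATP5PB, ATP5PD, ATP5PF and ATP5PO gave 0 calls. ATP5PB lay wholly lower at Day 13 in vivo, by -0.72 ± 0.26 (adjusted p = 0.232). ATP5PO, the oligomycin sensitivity protein, had 13.61, 12.91 and 13.66 in Day 7 in vitro and 11.40, 12.40 and 12.39 in Day 7 in vivo, a difference of 1.33 ± 0.49 without overlap (adjusted p = 0.646). ATP5IF1, the inhibitor that stops the enzyme from hydrolysing ATP, differed by 0.68 ± 0.31 at Day 7, also without overlap (adjusted p = 0.794).

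The day effect of the in vitro origin minus that of the in vivo origin gave 0 calls by limma, where 0.4% of all probe sets and 0.831% of those above background were called. An unadjusted p below 0.05 was reached by 12 genes, or 15.2%, against 10.1% of all probe sets and 21.1% of those above background. Its median was -0.40, with 24 values above 0 and 55 below, where 51.5% of the probe sets above background had values above 0. It was 0.25, with 49 above and 30 below, when ribosomal protein genes centred the arrays. That centring moved the median of all probe sets by 0.65, and it cannot change the distance between the subunit genes and all probe sets. The smallest adjusted p was that of NDUFB2 (1.29 ± 0.24, adjusted p = 0.0824). The other probe set of NDUFB2 gave -1.25, so the direction depends on the probe set here too. The largest values below 0 were those of NDUFB7 (-2.82 ± 1.08, adjusted p = 0.414), ATP5ME (-2.37 ± 0.72, adjusted p = 0.282) and NDUFS8 (-1.88 ± 1.09, adjusted p = 0.627). The largest above 0, after NDUFB2, were those of COX7A2L (1.13 ± 0.50) and NDUFA9 (1.06 ± 0.78).

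Of the 79 genes, 18 had several probe sets, and 9 of these had a second probe set above background. In all 9, 2 probe sets of a gene differed by at least 1 in at least 1 of the 4 pairwise comparisons. They were NDUFA5, NDUFB2, NDUFS1, UQCRB, UQCRC1, UQCRC2, COX6C, ATP5F1B and ATP5MG. A probe set can match a different end, splice form or copy of a gene, and the deposited annotation does not say which.

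NDUFB2 had the widest gap, 2.21 in the in vitro day comparison. Its other probe set had 9.27, 9.20 and 9.84 in Day 13 in vitro, 9.37, 10.66 and 9.65 in Day 13 in vivo pools, 10.54, 10.08 and 11.35 in Day 7 in vitro and 10.21, 9.53 and 9.87 in Day 7 in vivo. By that probe set Day 13 in vitro lay wholly below Day 7 in vitro, where by the brightest one it lay wholly above. ATP5MG gave 0.86 ± 0.43 and -1.08 ± 0.32 by its probe sets for origin at Day 7, each without overlap and on opposite sides. COX6C gave 0.85 ± 0.30 and -1.08 ± 0.46 there, but its second probe set lay between 2.93 and 5.49, near background.

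NDUFA5 gave 1.15 ± 0.50 and -0.13 ± 0.24 in the in vitro day comparison, and its brightest probe set had 14.14, 13.71 and 12.23 in Day 13 in vitro. NDUFS1, a core iron-sulfur subunit, gave 0.97 ± 0.38 and -0.62 ± 0.28 between the origins at Day 13, wholly higher by one probe set and wholly lower by the other. UQCRC2, a core protein, gave -0.12 ± 0.49 and -1.62 ± 0.35 in the in vivo day comparison, and its second probe set passed (adjusted p = 0.0406). That probe set had 5.10, 5.01 and 5.10 in Day 13 in vivo and 7.03, 6.46 and 6.59 in Day 7 in vivo. UQCRB gave 0.56 ± 0.21 and -0.52 ± 0.60 for origin at Day 7, and ATP5F1B gave -0.27 ± 0.37 and -1.91 ± 0.80. UQCRC1 gave -1.35 ± 1.11 and 0.20 ± 0.20 in the in vivo day comparison. Its second probe set had 4.71 on 10 of the 12 arrays, and its lowest and highest values were 4.54 and 5.50. That probe set hardly varied, so the gap for UQCRC1 rests mostly on the brightest one.

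**Figure D5:**
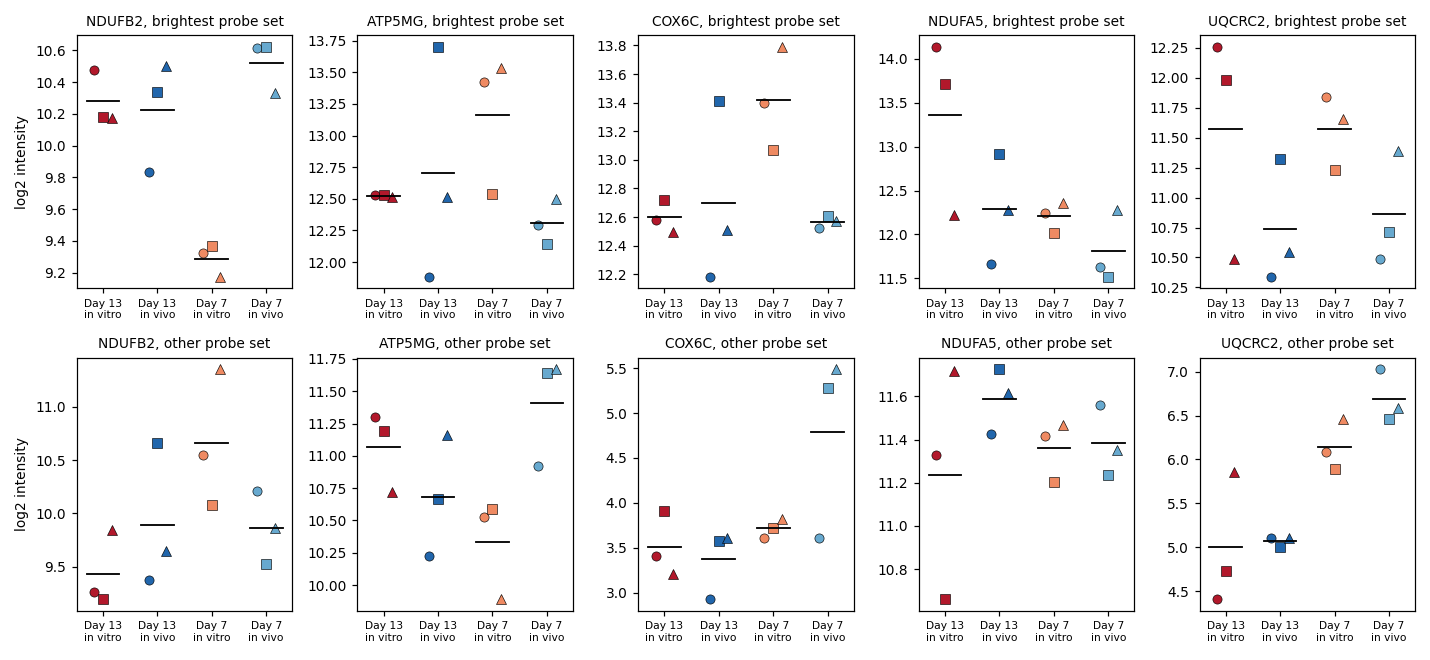
Log2 intensities on each of 12 arrays by the brightest (top) and another (bottom) probe set of 5 genes, with the mean of 3 arrays as bars; the vertical axes differ between panels. NDUFB2 and ATP5MG order the Day 7 groups oppositely by their probe sets, with differences of -1.23 and 0.79 for NDUFB2 and 0.86 and -1.08 for ATP5MG.

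Genes that build or serve the complexes were counted by list. In the day comparisons 3.79% of all probe sets and 8.23% of those above background were called in vivo. In vitro 7.51% and 16.6% were called. Of 35 assembly factors measured, 1 was higher and 0 lower at Day 13 in vivo, or 2.86%. In vitro 2 were higher and 1 lower, or 8.57%. DMAC2L, a factor linked to ATP synthase, rose by 1.87 ± 0.42 in vivo (adjusted p = 0.0479) and by 2.36 ± 0.42 in vitro (adjusted p = 0.0122). COX15, which makes heme A for complex IV, rose by 2.69 ± 0.60 in vitro (adjusted p = 0.0314), with 9.22, 9.08 and 9.88 in Day 13 in vitro and 6.96, 7.66 and 5.50 in Day 7 in vitro. NDUFAF3, a complex I assembly factor, fell by 1.87 ± 0.45 there (adjusted p = 0.0443).

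Of 11 carriers and channels, 18.2% were called in the in vivo day comparison and 9.09% in vitro. VDAC1, a pore of the outer membrane, rose by 1.60 ± 0.29 at Day 13 in vivo and 1.89 ± 0.29 in vitro (adjusted p = 0.0185 and 0.00616). VDAC3 rose by 1.05 ± 0.18 in vivo (adjusted p = 0.016). Of 13 import and mass markers, 7.69% were called in vitro and 0 in vivo. HSPD1, the matrix chaperonin, rose by 0.97 ± 0.15 in vitro (adjusted p = 0.00716) and differed by 0.63 ± 0.15 in vivo (adjusted p = 0.0668). Of 15 genes for mitochondrial genome upkeep and biogenesis, 6.67% were called in vitro. PPRC1, a coactivator related to PGC-1, fell by 1.52 ± 0.32 there (adjusted p = 0.0253) and 0 others were called. None of these genes passed between the origins on either day.

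Most of the calls were close to the threshold. Each call was refitted without each of the 6 arrays it compares. NDUFB2 kept its in vitro day call each time (adjusted p up to 0.0497). COX5B lost its call without Day 13 in vitro replicate 1 or 2, and also without replicate 3 of Day 7 in vitro (adjusted p up to 0.0579), and COX8A without those or Day 7 in vitro replicate 1 (up to 0.0822). COX5A, COX7A2L and NDUFB6 lost theirs without any 1 array except Day 13 in vitro replicate 3 (up to 0.136, 0.118 and 0.101). COX7A2 lost its in vivo call without any 1 of the 6 (up to 0.147), and NDUFB2 its Day 7 call without any except Day 7 in vivo replicate 3 (up to 0.135). Leaving out an array outside the comparison, which changes only the shared estimate of spread and the adjustment, also lost calls: COX5A, COX7A2L and COX7A2 in 4 of 6 refits each (up to 0.06, 0.0567 and 0.0875) and NDUFB2 at Day 7 in 5 of 6 (up to 0.0942). The other 4 calls were lost in 0 of these 6. Without Day 13 in vitro replicate 3, 13 of the 79 genes were called in the in vitro day comparison and 8 between the origins at Day 13. Without replicate 1 or without replicate 2 of Day 13 in vitro, 1 was called in the in vitro day comparison. The shares of all probe sets called in these refits are not given, so these counts do not set the subunits apart from other genes.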

How the data were processed

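Total RNA from 12 pools of embryos was measured on Affymetrix bovine arrays, 3 per group. The deposited values are log2 intensities per probe set that the authors had normalized between arrays. RMA, GCRMA and limma are named, with no versions, per the submitters' processing notes, without saying if RMA or GCRMA gave the deposited table. Groups and replicate numbers follow the sample titles. Of 24128 probe sets, 112 controls were left out, and 13292 of the other 24016 carried a single symbol in GEO's platform annotation, which can be old. The background of 3.39 is the 99th percentile of 48 control probe sets, since the table holds no detection calls. It was chosen after the data were seen.

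Using limma 3.58.1 in R 4.3.3 (lmFit, eBayes without trend), the log2 values as deposited were modelled by 4 group means. Intervals are at 95% and tests were two-sided, with Benjamini-Hochberg adjustment over all 24016 probe sets. Residual degrees of freedom were 8 and prior ones 0.379. The procedure was also run on simulated data. These had independent errors, without the shared shifts of single arrays described above, so they do not test the effect of such shifts. The number of arrays limits the precision, and p-values measure the spread between pools.

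The members and lists were chosen with earlier results of these data known. Named genes were those called, the 3 largest rises and falls in value per comparison, the 2 brightest per complex, tissue isoforms, genes at background and genes whose probe sets disagreed. Others (NDUFV1, NDUFV2, SDHA, SDHB, CYC1, UQCRFS1, NDUFA4, and complex V parts) were added to show each complex's working parts, after their values were seen. Alternatives were quantile normalization, centring on array medians or on ribosomal protein genes, a filter on dim probe sets, other probe sets per gene, GAPDH and poly-A covariates, eBayes with trend, a replicate block, fits of 2 groups and leaving out arrays. Same-numbered arrays of different groups were not paired: 3 of 18 pairs correlated above 0.1 after removal of group means, with a median r of -0.06. No genome was used, so no coordinates or sequences are given.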

Additional observations from a re-analysis of the deposited data

How the results depend on the processing

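In the in vivo day comparison, where 1 gene was called, the count was 9 under ribosomal centring, 6 with the GAPDH covariate, 3 with quantile normalization, 2 with the mean of a gene's probe sets or its dimmest probe set, and 0 with eBayes trend, a filter on dim probe sets, the replicate block or the 2 groups alone. Leaving out 1 array gave 0 to 2. In the in vitro day comparison the 6 calls became 12 with quantile normalization, 11 with the dim filter, 10 with the mean of probe sets, 3 with the replicate block, 2 with the 2 groups alone, and 0 with the poly-A covariate or with Day 13 in vitro replicate 3 alone, a setting chosen after seeing the data. Leaving out 1 array gave 1 to 13. At Day 7 the 1 call, NDUFB2, was lost (0) with the GAPDH or poly-A covariate, the mean of probe sets, the dimmest probe set, the replicate block and the 2 groups alone, and leaving out 1 array gave 0 to 1. At Day 13 leaving out 1 array gave 0 to 8, and for the difference of the day effect 0 to 4, with 1 under ribosomal centring. The replicate block changed no other count of calls past 1.5 times. All these counts are of the 79 genes. The shares of all probe sets called under the same settings are not given, so the counts do not set the subunits apart from other genes. NDUFB2 reversed in the in vitro day comparison with the mean of its probe sets (-0.12) and its other probe set (-1.22), and at Day 7 with the other probe set (0.79). The median over the 79 genes turned in the in vivo day comparison with the GAPDH covariate (-0.44), ribosomal centring (-0.43) and without Day 13 in vivo replicate 2 (-0.23), at Day 7 with the GAPDH covariate (-0.15) and ribosomal centring (-0.024), at Day 13 with quantile normalization (-0.22), and for the difference of the day effect with ribosomal centring (0.25). Leaving out 1 array gave medians of -0.23 to 0.32 in the in vivo day comparison and -0.15 to 0.39 at Day 13, the highest without Day 13 in vivo replicate 2. Ribosomal centring moved the median of all probe sets by -0.50 in the in vivo day comparison, -0.54 at Day 7 and 0.65 for the difference of the day effect. It subtracts 1 value per array, so it cannot change the distance between the subunit genes and all probe sets. The medians under it are relative to the ribosomal protein genes. The cause of the changes was not tested. Log2 values near 3.39 are limited by background.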
